A study of Bos taurus and Ovis aries and Capra hircus with 27 samples.

Results

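The transcripts described here are 5 very abundant cattle identifiers, ENSBTAG00000043560, ENSBTAG00000043561, ENSBTAG00000043564, ENSBTAG00000043568 and ENSBTAG00000043584, of the 24616 identifiers in the cattle expression table. They were selected on 2 grounds, their place in the block of identifiers of the mitochondrial genome and their high measured level, so their high level itself is not a result. Expression was measured by strand-specific sequencing of messenger RNA in heart, liver and kidney, with 3 libraries per tissue and 9 in all. The cattle were untreated indigenous animals of about 4 years, and the study's methods describe several tissues sampled from each of 3 unrelated adult females. The 9 libraries may therefore come from as few as 3 animals. Goat and sheep libraries of the same series carry other identifiers and were not used here. Values are FPKM, sequenced fragments corrected for transcript length and for the number mapped per library, so that levels of different genes are on a per-length scale.

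The mitochondrial genome is a small circular DNA present in many copies per cell. It encodes core subunits of the respiratory chain and of ATP synthase, the ribosomal RNAs of the mitochondrial ribosome and a set of transfer RNAs. Both strands are transcribed as long precursors that are cut, mostly at the transfer RNAs, into single transcripts, whose levels then depend on processing and stability as well as on transcription. Heart muscle is rich in mitochondria, and liver and kidney are also highly aerobic.

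The table pairs no identifier with a gene name, and 0 of 24616 cattle identifiers matched the reference gene table (assembly ARS-UCD2.0). The role of each of the 5 transcripts, the mitochondrial label and the tissue labels could therefore not be checked by name. The block itself could be described. Of the 58 listed identifiers whose numbers lie within 25 of one of the 5, 38 were at 0 in all 9 libraries and 15 had a mean above 1000 FPKM. The other 5 had means of at most 439.5 FPKM. The reference table lists 37 mitochondrial genes, 13 for proteins, 2 for ribosomal RNAs and 22 for transfer RNAs, so the number of abundant identifiers equals that of the protein and ribosomal RNA genes together. That equality pairs no identifier with a gene.

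By mean FPKM over the 9 libraries, ENSBTAG00000043568 (28164), ENSBTAG00000043564 (20319), ENSBTAG00000043584 (17069) and ENSBTAG00000043560 (13512) were the 4 highest identifiers of the whole table. ENSBTAG00000043561 ranked 9 with 6998 FPKM, although it was listed at 0 in 3 of the 9 libraries. The choice by level therefore left abundant neighbours outside. The highest of the 10 remaining abundant identifiers of the block were ENSBTAG00000043556 with a mean of 12011 FPKM and ENSBTAG00000043550 with 8887 FPKM. These 10 identifiers serve below as the comparison nearest to the 5.

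Where they were above 0, 4 of the 5 transcripts were higher in every heart library than in any liver or kidney library. Mean heart levels were 3.53 to 8.09 times those of liver and 4.08 to 9.66 times those of kidney. Of the 10 neighbours, 9 were also higher in every heart library than in any liver library, and 10 than in any kidney library. The share of all identifiers separated in this way was not counted, so the separation is a description. The fifth transcript, ENSBTAG00000043561, was listed at 0 in all heart libraries and was at least 8603 FPKM in every liver and kidney library. In heart 3, the transcripts ENSBTAG00000043560, ENSBTAG00000043564 and ENSBTAG00000043584 were listed at 0 too. In liver 2 and kidney 3, ENSBTAG00000043564 and ENSBTAG00000043568 were far below the other libraries of their tissue. The members are taken in turn below, with these libraries named beside each result.

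ENSBTAG00000043568 was the only one of the 5 with a value above 0 in all 9 libraries. In heart it was measured at 58917, 50137 and 56835 FPKM, a mean of 55297 ± 4588 (SD, n = 3). Liver gave 26916, 1657 and 18403 FPKM. Kidney gave 19043, 17114 and 4454 FPKM. The heart values were close together and lay above all others, whereas liver 2 and kidney 3 stood far below the libraries beside them. The mean in heart was 3.53 times that of liver and 4.08 times that of kidney, and 2.44 and 3.06 times when liver 2 and kidney 3 were left out. It was the highest transcript of the table in heart 3, liver 1, liver 3, kidney 1 and kidney 2.

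ENSBTAG00000043564 gave 74510 and 54679 FPKM in heart 1 and 2 and was listed at 0 in heart 3. Liver values were 17509, 12.6 and 12778 FPKM. Kidney values were 11920, 11414 and 49.7 FPKM. It was the highest transcript of heart 1 and the second of kidney 1 and 2. In liver 2 it ranked 3804, and in kidney 3 it ranked 1334. The mean of the 2 heart libraries above 0 was 6.40 times that of liver and 8.29 times that of kidney. Without liver 2 and kidney 3 these ratios were 4.27 and 5.54.

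ENSBTAG00000043584 gave 38185 and 76406 FPKM in heart 1 and 2 and was listed at 0 in heart 3. Liver values of 8694, 5820 and 6722 FPKM averaged 7079 ± 1470 (SD, n = 3). Kidney values of 6235, 5544 and 6018 FPKM averaged 5932 ± 353 (SD, n = 3). Liver and kidney overlapped, and both heart values lay well above them, at 8.09 times the liver mean and 9.66 times the kidney mean. The heart values lay far apart, and in heart 2 this transcript was the highest of all.

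ENSBTAG00000043560 gave 32090.5 and 50865 FPKM in heart 1 and 2 and was listed at 0 in heart 3. In liver it was measured at 7825, 4000 and 7705 FPKM, with a mean of 6510 ± 2175 (SD, n = 3). In kidney it was measured at 6712, 6439 and 5971 FPKM, with a mean of 6374 ± 375 (SD, n = 3). Its pattern was that of ENSBTAG00000043584, with heart at 6.37 times liver and 6.51 times kidney, and liver and kidney overlapping.

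ENSBTAG00000043561 was listed at 0 in heart 1, 2 and 3. Liver values were 14562, 8917 and 13159 FPKM, a mean of 12213 ± 2939 (SD, n = 3). Kidney values were 8989, 8749 and 8603 FPKM, a mean of 8780 ± 195 (SD, n = 3). Liver 1 and 3 lay above all kidney libraries and liver 2 lay among them. No fold change is given against heart, because a listed 0 in a table without counts sets no bound.

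**Figure D1:**
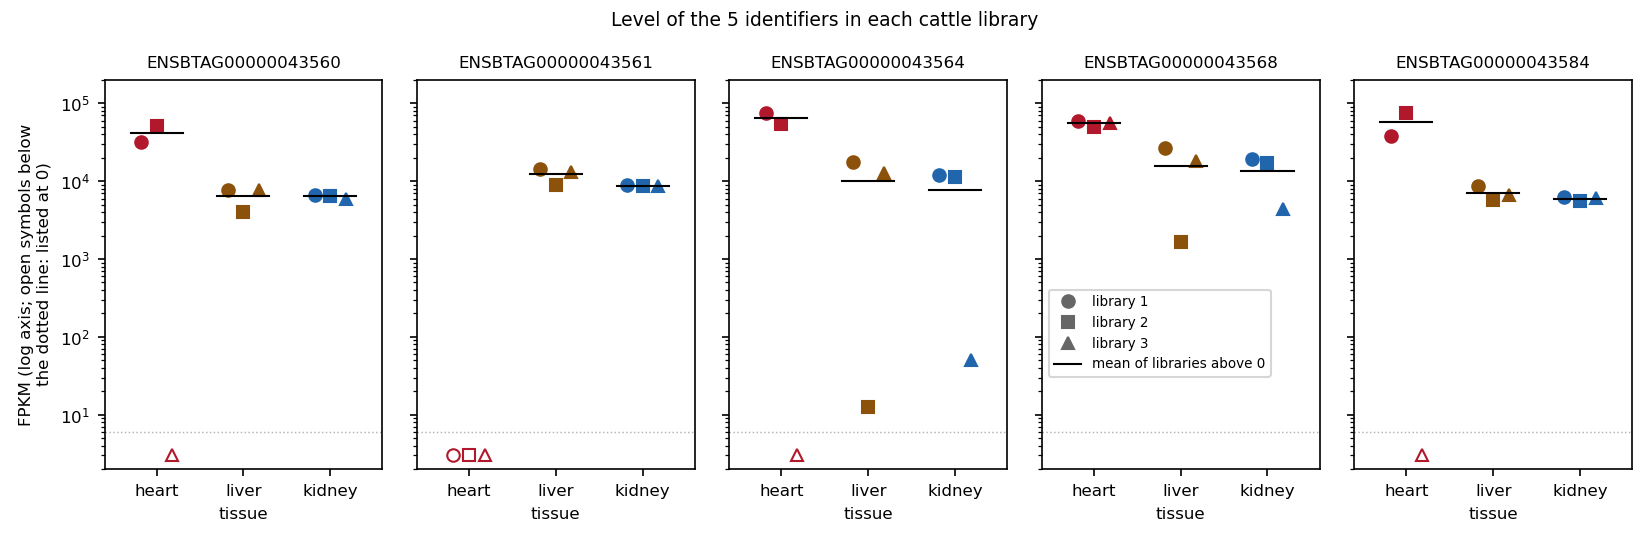
Each panel plots FPKM on a log axis against tissue for 1 of the 5 identifiers, with a symbol per library and a bar at the mean of the libraries above 0. Open symbols under the dotted line mark libraries listed at 0. ENSBTAG00000043568 has all 3 heart libraries between 50137 and 58917, and ENSBTAG00000043564 has single low values in liver (12.6) and kidney (49.7).

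In levels per length, the order of the transcripts differed between tissues and libraries. In liver 1 and 3 and in kidney 1 and 2, ENSBTAG00000043568 was the highest of the 5 and ENSBTAG00000043560 and ENSBTAG00000043584 the lowest, in either order. The second place was shared by ENSBTAG00000043564 and ENSBTAG00000043561, whose values overlapped in liver. In liver 2 and kidney 3 ENSBTAG00000043561 was the highest and ENSBTAG00000043564 the lowest. In heart 1 the order began with ENSBTAG00000043564, and in heart 2 with ENSBTAG00000043584. Replicate libraries of one tissue thus did not share one order.

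The contrasts between tissues were fitted over the 14041 identifiers above 0.5 FPKM in at least 3 libraries, with limma on log2(FPKM + 1) and Benjamini-Hochberg adjustment at 0.05. All 5 transcripts passed this filter on low values. Since the labels do not say which libraries came from one animal, tissues were treated as independent, and the p-values measure only the spread between these libraries. Between heart and liver, 30.3% of the identifiers tested were called higher in heart and 26.9% higher in liver. Of the 5 transcripts, 0 were called higher in heart and 1, ENSBTAG00000043561 with its listed 0s, higher in liver. Between heart and kidney, 19.5% of the identifiers were called higher in heart and 53.8% higher in kidney, against 0 and again 1 of the 5. Between liver and kidney, 14.8% were called higher in liver and 58.4% higher in kidney, against 0 of the 5 in either direction. At an unadjusted p under 0.05, the numbers among the 5 were 2, 2 and 0. The share of all identifiers at that cut was not counted, so these numbers are a description. The shares called after adjustment moved with the scale. With median ratio scaling, 34.0% were called higher in heart and 30.8% higher in kidney in the contrast of these tissues, and between liver and kidney 29.5% and 28.9%. With equal sums of FPKM, 17.7% were called higher in heart and 41.3% higher in liver, and between heart and kidney 13.0% and 64.8%.

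With the listed 0s taken as values, the limma differences of the 3 transcripts at 0 in heart 3 were negative or close to 0 although both other heart libraries lay above every liver and kidney library. Heart minus liver was −2.40 ± 3.26 (SE) for ENSBTAG00000043560 on that scale (limma adjusted p = 0.557). It was −2.29 for ENSBTAG00000043584 (limma adjusted p = 0.588) and 0.14 for ENSBTAG00000043564 (limma adjusted p = 0.984). Heart minus kidney was −2.44, −2.05 and −0.25 for these 3 transcripts (limma adjusted p = 0.519, 0.598 and 0.962). ENSBTAG00000043568, which had no 0, was higher in heart by 2.56 ± 1.01 (SE) against liver (limma adjusted p = 0.0519) and by 2.28 against kidney (limma adjusted p = 0.0634). It missed the threshold in both contrasts, and its lowest values in these fits were liver 2 and kidney 3. Over 21 alternative settings its adjusted p ranged from 0.00950 to 0.213 against liver and from 0.00245 to 0.239 against kidney.

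When a 0 beside a value above 1000 FPKM in another library of the same tissue was set missing, ENSBTAG00000043560 was higher in heart than in liver by 2.70 and than in kidney by 2.67 on the log2 scale. The limma adjusted p-values were 0.00113 and 0.000824. In the same fit ENSBTAG00000043584 was higher in heart by 2.95 and 3.19, with limma adjusted p-values of 0.000582 and 0.000245. The third transcript with a 0 in heart 3, ENSBTAG00000043564, was not called, at 5.46 against liver (limma adjusted p = 0.175) and 5.07 against kidney (limma adjusted p = 0.181). These fits use 2 heart libraries for the 3 transcripts, since heart 3 drops out. The 5 were chosen for a high level, which high heart values can lift. The setting also drops only 0s, which can only raise a tissue mean. The p-values of this fit are therefore a description. Over all 21 alternatives the adjusted p against liver ranged from 0.00113 to 0.723 for ENSBTAG00000043560 and from 0.000582 to 0.756 for ENSBTAG00000043584. ENSBTAG00000043560 and ENSBTAG00000043584 were called higher in heart in 3 of the 21 alternatives, those in which the 0 of heart 3 was not used. With heart 3, liver 2 and kidney 3 all left out, 5 of the 5 transcripts were called between heart and liver and between heart and kidney, 4 of them higher in heart. Over all identifiers 45.6% and 65.8% were called in that fit, and the 3 libraries were left out for the low values of these same transcripts, so the count is a description.

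The 10 neighbouring abundant identifiers had no listed 0 and gave the same contrasts without exclusions. They were taken by a mean above 1000 FPKM over all 9 libraries, which high heart values can lift. In ENSBTAG00000043567 and ENSBTAG00000043570, named after their values were seen, only the heart mean passed that level (2066 and 2784 FPKM). Counts among the 10 are therefore a description. All 10 were called higher in heart than in liver, against 30.3% of all identifiers, with log2 differences of 1.37 to 2.96 and a largest limma adjusted p of 0.0369. In 1 of them, ENSBTAG00000043567, named after its values were seen, heart and liver overlapped, with 1259 FPKM in heart 1 and 1790 FPKM in liver 2. All 10 were also called higher in heart than in kidney, against 19.5% of all identifiers, with log2 differences of 1.82 to 3.18 and a largest limma adjusted p of 0.00296. Between liver and kidney 0 of the 10 were called by limma and 0 had an unadjusted p under 0.05, with log2 differences of 0.08 to 0.85. In ENSBTAG00000043556 the heart libraries gave 20117, 35680 and 30756 FPKM against 2434 to 5507 in liver and 3228 to 3472 in kidney. In ENSBTAG00000043550 they gave 15242, 20526 and 20927 FPKM against 1631 to 7071 in liver and 1813 to 3962 in kidney. As ratios of means, heart over liver was 2.22 to 7.56 in the 10 neighbours, beside 3.53 to 8.09 in the 4 transcripts of the 5 with heart values. Heart over kidney was 3.67 to 8.80, beside 4.08 to 9.66. In bulk tissue, more mitochondria-rich cells and more mitochondrial RNA per cell cannot be told apart.

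FPKM is relative to the library, and the sum of FPKM ranged from 472908 in liver 2 to 904285 in heart 2. Over identifiers outside the block, the median log2 difference was 0.01 between heart and liver, −0.62 between heart and kidney and −0.70 between liver and kidney. Scaling by median ratios brought these medians to −0.024, 0.035 and −0.012. Under that scaling, under equal sums and under equal sums outside the block, all 4 transcripts with heart values above 0 were higher in each such heart library than in any liver or kidney library. The share of all identifiers separated under each scaling was not counted. The ratio of liver to kidney was 1.02 to 1.39 in the 5 transcripts as deposited, with overlapping libraries in all 5. It was 1.94 to 2.62 after median ratio scaling, where ENSBTAG00000043560, ENSBTAG00000043561 and ENSBTAG00000043584 were higher in each liver library than in any kidney library. Liver thus had the higher mean under each scaling, but the size and the overlap depended on the scale. The sign of a limma difference could too, at −0.033 as deposited and 0.87 under median ratios for ENSBTAG00000043560.

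In liver against kidney, ENSBTAG00000043561 showed the largest limma difference of the 5, 0.45 ± 0.22 (SE) on the log2 scale (limma adjusted p = 0.0947, and 0.00101 to 0.292 over 21 alternatives, of which 6 were at or below 0.05). Without liver 2 the difference was 0.66 (limma adjusted p = 0.00348). The differences of the other 4 transcripts lay between −0.39 and 0.24, with limma adjusted p-values of 0.823 to 0.996.

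Together the 5 transcripts took 24.1%, 25.7% and 7.51% of the summed FPKM in heart 1, 2 and 3. They took 12.5%, 4.32% and 10.3% in the liver libraries and 9.53%, 8.85% and 4.29% in the kidney libraries. Heart 1 and 2 were the highest, and heart 3 fell among the liver and kidney libraries. The means were 19.1% ± 10.1 in heart, 9.04% ± 4.24 in liver and 7.55% ± 2.85 in kidney (SD, n = 3 each). The 10 neighbours took 10.2% to 16.7% in heart, 2.75% to 5.47% in liver and 2.23% to 3.44% in kidney, and heart 3 had the highest value of all at 16.7%. With all 15 identifiers, the lowest heart library (24.2%) was above the highest liver library (18.0%) and the highest kidney library (13.0%). The share of the 5 in heart was 10.04 percentage points above liver and 11.5 above kidney, and 15.8 and 17.3 without heart 3.

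**Figure D2:**
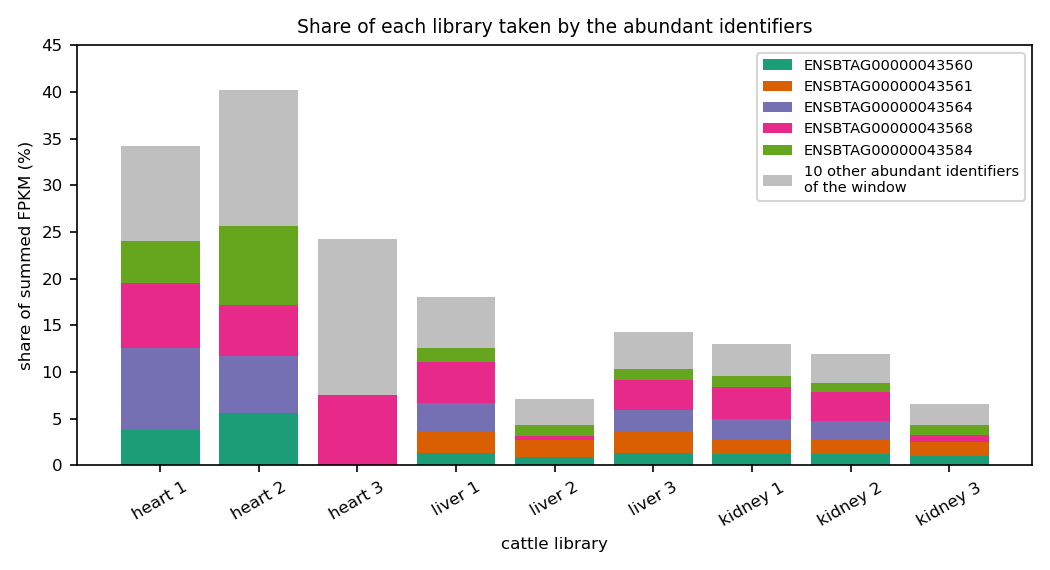
Stacked bars give the percentage of summed FPKM in each of the 9 cattle libraries that went to each of the 5 identifiers (colours) and to the 10 other abundant identifiers of the block together (grey). Heart 3 shows 1 coloured segment, 7.51%, under a grey segment of 16.7%.

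Heart 3 stood apart in 3 of the 5 transcripts and not in the rest of the block. Its 10 neighbours differed from heart 2 by −0.21 to 0.09 on the log2 scale (median −0.03), and ENSBTAG00000043568 by 0.18. Over the whole table, 6 identifiers were at 0 in heart 3 beside a value above 1000 FPKM in another heart library, of which 3 were these transcripts and 3 lay outside the block. The same was seen for 2 identifiers in heart 1 and 3 in heart 2, none of them in the block. Heart 2 and heart 3 were otherwise the closest heart libraries, with a robust SD of 0.122 on the log2 scale and r = 0.988 across identifiers, while the other heart pairs had robust SDs of 0.240 and 0.243. A listed 0 can be a failed estimate of the quantification, and whether these were was not tested.

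Liver 2 and kidney 3 stood apart in a different pair of transcripts. On the log2 scale, ENSBTAG00000043564 differed from the mean of the other libraries of the tissue by −10.11 in liver 2 and by −7.85 in kidney 3. For ENSBTAG00000043568 the differences were −3.75 and −2.02. ENSBTAG00000043560 differed by −0.96 and −0.14, ENSBTAG00000043561 by −0.63 and −0.04, and ENSBTAG00000043584 by −0.39 and 0.03. Only the first pair was thus far below in both libraries. The 10 neighbours had differences of −2.01 to 1.84 in liver 2 (median −1.15) and of −1.06 to 0.28 in kidney 3 (median −0.49). Among 715 identifiers outside the block with a mean above 100 FPKM, the median difference was −0.35 in liver 2 and −0.11 in kidney 3, and the lowest 1% lay below −1.37 and −1.79.

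**Figure D3:**
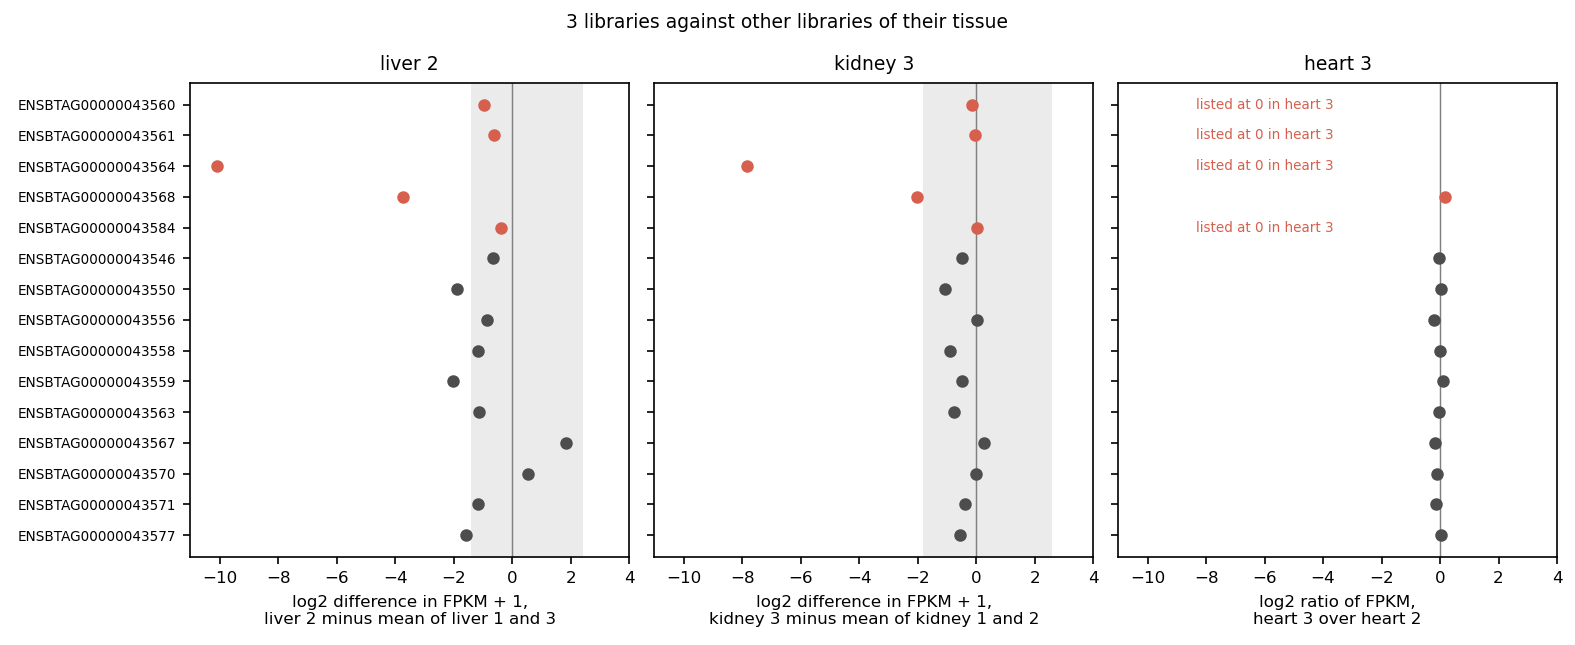
Points give, for the 5 identifiers (red) and the 10 other abundant identifiers of the block (grey), the log2 difference of liver 2, kidney 3 and heart 3 from other libraries of the same tissue. Grey bands in the first panels span the lowest to the highest 1% of 715 abundant identifiers outside the block. ENSBTAG00000043564 lies at −10.11 in liver 2 and −7.85 in kidney 3.

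A search of the whole table took identifiers more than 2 on the log2 scale below the mean of the tissue's other libraries. Both other libraries had to be above 100 FPKM. The search found 21 identifiers in liver 1, 8 in liver 2 and 3 in liver 3, and 0, 0 and 5 in kidney 1, 2 and 3. Liver 2 and kidney 3 shared 3 of them. They were ENSBTAG00000043564, ENSBTAG00000043568 and ENSBTAG00000038430, the last of which lies outside the block and was chosen after its values were seen. ENSBTAG00000038430 gave 392, 4.59 and 222 FPKM in liver and 357, 387 and 6.67 FPKM in kidney. Its heart values were 21.5, 1.85 and 5.69 FPKM, so that it did not share the high heart level of the pair. Kidney 3 shared 0 with liver 1 and 0 with liver 3, and the other combinations could share none, since kidney 1 and 2 had no such identifier. What liver 2 and kidney 3 have in common is not given by the labels, and no cause was tested.

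Ratios between transcripts within a library do not depend on how the library was scaled. All 5 were chosen for a high level, which limits how far apart they can lie, so the closeness of a ratio to 0 is a description. ENSBTAG00000043560 and ENSBTAG00000043584 stayed close to each other, with log2 ratios of −0.59 to 0.22 over the 8 libraries in which both were above 0. ENSBTAG00000043561 to ENSBTAG00000043584 gave log2 ratios of 0.52 to 0.97 over 6 libraries. ENSBTAG00000043564 to ENSBTAG00000043568 gave 0.34 and 0.13 in heart 1 and 2, and −0.68 to −0.53 in liver 1, liver 3, kidney 1 and kidney 2. The last ratio was −7.04 in liver 2 and −6.49 in kidney 3, so the drop was much deeper in ENSBTAG00000043564 than in ENSBTAG00000043568.

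Relative to ENSBTAG00000043584, the transcript ENSBTAG00000043568 was at a log2 ratio of 1.45 to 1.63 in those 4 libraries of liver and kidney. In the same libraries ENSBTAG00000043564 was at 0.93 to 1.04. Both ratios were narrow there, and liver and kidney did not stand apart.

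**Figure D4:**
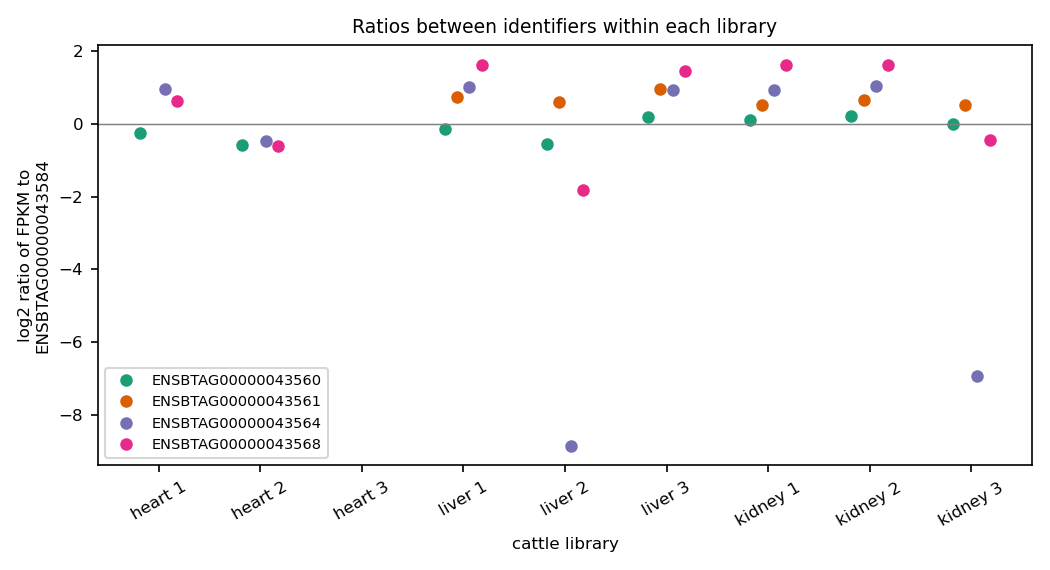
The log2 ratio of FPKM to that of ENSBTAG00000043584 is plotted for the other 4 identifiers in each cattle library, and heart 3 has no points because ENSBTAG00000043584 was listed at 0 there. In liver 1, liver 3, kidney 1 and kidney 2, ENSBTAG00000043568 lies between 1.45 and 1.63 and ENSBTAG00000043564 between 0.93 and 1.04.

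Over the 10 pairs of transcripts, an exact permutation test of the 3 tissues found no ratio that passed adjustment, with adjusted p-values of 0.667 for 3 pairs and 0.943 for the rest. None had an unadjusted p under 0.05. The 4 ratios with ENSBTAG00000043561 had no heart values and compared liver with kidney alone, where no p under 0.1 is possible, so they could not pass. The smallest raw p was 0.1, for ENSBTAG00000043560 to ENSBTAG00000043561, at −0.94 ± 0.20 in liver and −0.46 ± 0.06 in kidney (SD, n = 3 each, log2 ratio, exact test). The groups did not overlap, and with 3 libraries against 3 this is the smallest p the design allows. The exact 2-sided tests of 22 ratios between single tissues all had an adjusted p of 0.9, and with at most 3 libraries a tissue none of them could have passed.

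The identifiers most like the 5 were sought outside the block among 14023 identifiers, by the mean over the 5 of Pearson's r on log2(FPKM + 1) in the libraries where each of the 5 was above 0 (6 to 9 libraries). ENSBTAG00000002413 was the closest, with a mean r of 0.872. It gave 17.4, 19.4 and 18.7 FPKM in heart, 8.82, 5.73 and 7.51 FPKM in liver and 5.91, 6.43 and 5.51 FPKM in kidney. ENSBTAG00000047694 followed with a mean r of 0.871. It gave 1382, 1791 and 1923 FPKM in heart, 854, 507 and 775 FPKM in liver and 682, 704 and 541 FPKM in kidney. Both had their highest values in heart and their lowest liver value in liver 2, traits that the choice by likeness favours. The likeness was uneven. For ENSBTAG00000002413, r was 0.666 with ENSBTAG00000043564 and 0.974 with ENSBTAG00000043584. These correlations are descriptions over libraries that share tissue and library effects, and no p is given for them.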

How the data were processed

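Messenger RNA of 9 cattle libraries was analysed, 3 each of heart, liver and kidney, grouped by sample title, with table columns matched through the sample descriptions. According to the study's methods and processing notes, reads were filtered, mapped with TopHat to UMD3.1 and quantified with Cufflinks 2.2.1. The authors deposited 1 value per gene and library on the log2 scale, log2(FPKM + 1), and FPKM was recovered from it. The table held no counts, so depth and counting error are unknown. Reads shared between mitochondrial genes, or with nuclear copies, could not be resolved.

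Contrasts were fitted with limma 3.58.1 (R 4.3.3), with a mean per tissue, pseudocount 1 and a trended prior variance, and p-values were adjusted by Benjamini-Hochberg over 14041 identifiers above 0.5 FPKM in at least 3 libraries. The fit was tested on simulated data. On this scale fold changes of low genes are understated. Ratios were tested by exact permutation. The members and lists were chosen with earlier results of these data known. The rule named all 5 members, the 2 highest other identifiers of the block and the 2 most alike outside it. Planned lists of tissue markers and nuclear respiratory genes were not used, since no identifier carried a name. Authors' goat and sheep tables and a file of goat proteins were not used. Alternatives changed the pseudocount, filter, scaling, treatment of 0s and libraries. Python 3.11.15, numpy 2.4.6 and pandas 2.3.3 were used.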

Additional observations from a re-analysis of the deposited data

How the results depend on the processing

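The numbers of the 5 transcripts called were 1 for heart against liver, 1 for heart against kidney and 0 for liver against kidney. They were 4 and 3 for the first contrasts with 0s set missing beside a value above 1000 FPKM in the same tissue. Without liver 2 and kidney 3 they were 2 and 2, and 5 and 5 without heart 3 as well. The last 2 settings were chosen after seeing the data. In each of these counts ENSBTAG00000043561, whose heart 0s stayed as values, was 1 of the calls and was lower in heart. Over all identifiers 57.2%, 73.3% and 73.2% were called in the main fit. With 0s set missing 57.3% and 73.4% were called, and 54.1% and 72.1% without liver 2 and kidney 3. Without heart 3 as well the shares were 45.6% and 65.8%. Dividing by the share of genes other than the 5, also added later, gave 2, 2 and 0. In that fit 55.0%, 68.5% and 70.5% of all identifiers were called. A pseudocount of 10 gave 2 for heart against liver (52.4% of all identifiers). Median ratio scaling gave 2 for heart against kidney (64.8%). For liver against kidney, 1 was called under median ratios (58.5% of all identifiers), equal sums (70.7%) and equal sums outside the block (70.2%). It was also 1 without liver 2 and kidney 3, with heart 3 (71.0%) or without it (67.8%). Leaving out each library in turn gave 1 to 3, 1 to 3 and 0 to 1, with 3 only without heart 3 and 2 without liver 1 or, against kidney, without liver 2. Over all identifiers these fits called 49.2% to 58.5%, 67.4% to 77.0% and 67.1% to 75.2%.

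On the log2 scale, ENSBTAG00000043560 turned from negative to 2.70 (heart minus liver) and 2.67 (heart minus kidney) with 0s set missing, and to 2.38 and 2.62 without heart 3, liver 2 and kidney 3. ENSBTAG00000043584 turned to 2.95 and 3.19, and to 2.82 and 3.20. ENSBTAG00000043564 minus liver changed sign to −0.93 at pseudocount 0.1, −0.024 under median ratios, −0.39 and −0.034 under equal sums over all identifiers and outside the block, and −3.23 without liver 2 and kidney 3. Minus kidney it was 0.77 at pseudocount 10, 0.48 under median ratios, 5.07 with 0s set missing, 2.44 with close pairs averaged (heart 2 with 3, kidney 1 with 2) and 2.45 without the 3 libraries.

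For liver minus kidney, ENSBTAG00000043560 turned to 0.87 under median ratios, 0.018 and 0.066 under equal sums, and 0.24 without liver 2 and kidney 3. ENSBTAG00000043564 turned to 0.50 under median ratios, 0.91 with pairs averaged and 0.36 without liver 2 and kidney 3. ENSBTAG00000043568 turned to 0.63, 0.063 and 0.30 under the same settings. Leaving out each library in turn gave, for heart minus liver, −5.12 to 2.70 (ENSBTAG00000043560), −3.23 to 5.46 (ENSBTAG00000043564) and −5.16 to 2.95 (ENSBTAG00000043584). For heart minus kidney it gave −5.15 to 2.67, −3.03 to 5.07 and −4.92 to 3.19. For liver minus kidney it gave −0.20 to 0.29 (ENSBTAG00000043560), −3.01 to 2.97 (ENSBTAG00000043564) and −1.04 to 0.97 (ENSBTAG00000043568).

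With all 15 abundant identifiers the share in heart exceeded liver by 19.8 and kidney by 22.4 percentage points. With the 5 transcripts, leaving out each library gave 6.74 to 15.8, 8.23 to 17.3 and, for liver minus kidney, −0.249 to 3.86 (1.49 with all), below 0 without liver 1 or without kidney 3. The median difference outside the block, heart minus liver, was −0.37 with equal sums, −0.12 with equal sums outside it, 0.12 divided by the share of other genes and −0.024 under median ratios. Heart minus kidney gave −1.02, −0.71, −0.47 and 0.035, −0.78 and −0.21 at pseudocounts 0.1 and 10 and −0.28 without the filter. Liver minus kidney gave −0.91 and −0.25 at pseudocounts 0.1 and 10, −0.42 without the filter and −0.012 under median ratios. Leaving out each library gave −0.023 to 0.041, −0.65 to −0.59 and −0.73 to −0.64. With a pseudocount of 1 and the listed 0s kept as values, 2 of 10 ratios passed. With the 0s left out, 0 passed, also when each library was left out in turn. The cause of these changes was not tested, and the fits without the listed 0s show only that some results depend on those values.

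Titles share replicate numbers across tissues, but the labels do not say that a number marks an animal. Deviations of same-numbered libraries correlated between −0.159 and 0.159, and those of differently numbered libraries between −0.203 and 0.205. The highest was that of liver 2 with kidney 3. The numbers were therefore treated as names. With the replicate number as a block, 1, 1 and 0 of the 5 were called, against 55.1%, 72.4% and 72.1% of all identifiers. ENSBTAG00000043568 then differed by 2.56 and 2.28 with limma adjusted p-values of 0.054 and 0.064.

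Without counts, the depth behind each 0 is unknown. With 3 libraries per tissue, 1 library can decide a call. ENSBTAG00000043560 and ENSBTAG00000043584 were called higher in heart without heart 3 and not with its 0s as values. This did not hold for each low library. ENSBTAG00000043568 stayed uncalled against liver without liver 2 (limma adjusted p = 0.0941) and against kidney without kidney 3 (limma adjusted p = 0.239).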
